A study of Homo sapiens with 16 samples.

Results

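Small nucleolar RNAs and small Cajal body RNAs are the genes whose symbols in the deposited tables begin with SNORA, SNORD or SCARNA followed by a number. By this rule the U251 tables held 347 members among 20314 genes, of which 227 were SNORD, 97 SNORA and 23 SCARNA genes. The U343 tables held 351 members among 20626 genes, with 230, 97 and 24 in the same order. The 4 members found in U343 tables only were SCARNA9, SNORD112, SNORD113-3 and SNORD113-8. No measured value entered the choice.

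The study used the human glioblastoma lines U251 and U343, gave them a mimic of miR-137 or of a control miRNA at 25 nM, and sequenced their RNA. RNASeq libraries were made from total RNA taken after 48 hours, and RIPSeq libraries from RNA pulled down with antibodies to poly(A) binding protein (PABP). Each combination of line, assay and transfection had 2 libraries, which gives 16 libraries in 8 groups. The control group received the control mimic, so that both groups went through transfection, and no group was left untransfected. Each line is a culture of tumour cells grown without other cells, and the mimic is an added synthetic RNA, and its level beside the miR-137 that the cells make themselves was not analysed here. Nothing in the labels says whether the 2 libraries of a group came from separate cultures, so the p-values below measure only the spread between these libraries, which may be technical.

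Box C/D RNAs, named SNORD, guide the methylation of ribose in ribosomal RNA, and box H/ACA RNAs, named SNORA, guide the conversion of uridine to pseudouridine. Small Cajal body RNAs, named SCARNA, carry box C/D or H/ACA elements or both, reside in Cajal bodies and guide the same modifications on the RNAs of the spliceosome. In human cells most of these RNAs are cut out of introns of a host gene and end without a poly(A) tail, whereas their hosts are often genes for ribosomal proteins, translation factors or spliced RNAs without a protein product. PABP binds poly(A) tails, so the RIPSeq and RNASeq libraries set RNA associated with PABP beside all RNA of the cell.

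The mimic stands for the mature miRNA made from the 3′ arm of the miR-137 precursor, and its sequence is shown because it is the only agent that separates the groups. RefSeq places it at chr1:98046091-98046113 on the minus strand of GRCh38.p14, with 23 bases, and the capitals mark the seed, bases 2 to 8.
hsa-miR-137-3p: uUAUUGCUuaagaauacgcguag

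The gene spans in the tables are in hg18. In U251, 236 of 347 members lay inside the span of another gene, 233 of them with a host on the same strand and 3 with a gene on the opposite strand only. A further 101 members overlapped no gene, and 11 overlapped another member. In U343 the corresponding numbers were 238, 235, 3, 103 and 11. The spans do not say whether a member lies in an intron or an exon of its host. Whether counting used the strand of a read is not given in the sources used here. A read that falls on both a member and an exon of its host cannot be assigned to one of them from the counts. Median length was 93 bases in both tables, with 78 for SNORD, 134 for SNORA and 144 for SCARNA genes in U251. The longest span, 26207 bases for SNORD115-21, held no read in control total RNA of either line.

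Depth ranged from 10156675 to 18224061 counted reads in U251 RNASeq, 22359794 to 30731476 in U251 RIPSeq, 37952273 to 45134766 in U343 RNASeq and 37736206 to 45055184 in U343 RIPSeq. Members took 12272 to 15203 of these reads per library in U251 RNASeq, 1513 to 2327 in U251 RIPSeq, 8199 to 15119 in U343 RNASeq and 1119 to 1650 in U343 RIPSeq. At these depths a count of 3, the limit that a count of 0 allows, was worth 0.0665 to 0.295 RPM (reads on a gene per 1000000 counted reads of the library) in a single library, for counting error only. Summed reads on glioblastoma and astrocyte markers (VIM, NES, SOX2, GFAP, S100B, CD44) lay between 6286 and 16300 RPM in all libraries, against 0.618 to 16.7 for markers of blood, liver, epithelium, neurons and endothelium. The first sum moved with miR-137 in U251 and the second in U343. In U251 total RNA the first held 11260 and 11232 RPM in control and 6286 and 6744 with miR-137, with 5 of 6 genes lower. In U343 total RNA the second went from 1.73 and 1.95 RPM to 14.8 and 8.90, and the synaptic vesicle gene SYP rose (log2 fold change 3.41, adjusted p = 0.00936 in edgeR). The part of these changes in any member's value was not tested. In 2 groups the replicates stood apart. The mean chi-square between replicates, over members with at least 10 reads, was 12.99 for the U251 RIPSeq control libraries and 23.4 for the U343 RNASeq miR-137 libraries, against 1.43 to 3.499 in the other 6 groups, where sampling noise alone gives about 1. Several results that rest on those 4 libraries are given below with 1 of them left out.

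Members were a small part of the reads and were far more abundant in total RNA than in PABP-bound RNA. In U251 control cells they held 900 and 800 RPM in total RNA and 92.6 and 49.2 in PABP-bound RNA. In U251 cells with miR-137 the values were 1342 and 1208 in total RNA and 92.0 and 84.0 in PABP-bound RNA. In U343 control cells they were 182 and 221 in total RNA and 36.6 and 33.2 in PABP-bound RNA. In U343 cells with miR-137 they were 363 and 192, and 28.4 and 29.7. Every total RNA library lay above every PABP library of its line.

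**Figure D1:**
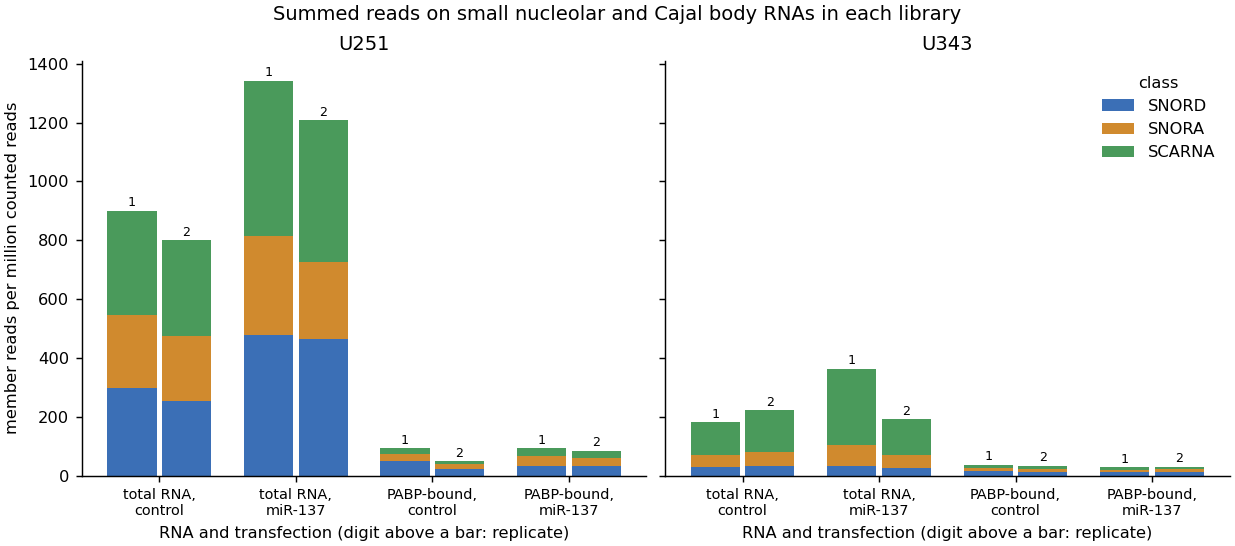
Member reads in RPM (vertical axis) in each of the 16 libraries, stacked by class, with U251 on the left and U343 on the right. Total RNA libraries reach 800 to 1342 in U251 and 182 to 363 in U343, above the PABP libraries at 49.2 to 92.6 and 28.4 to 36.6, and the first U343 miR-137 total RNA library stands above the second.

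As means over replicates, members held 850 ± 70.8 RPM (SD, n = 2) in U251 control total RNA and 70.9 ± 30.6 in PABP-bound RNA, a ratio of 11.99. With miR-137 the means were 1275 ± 94.4 and 88.0 ± 5.71, a ratio of 14.5. In U343 they were 202 ± 28.1 and 34.9 ± 2.40 in control cells, a ratio of 5.77, and 278 ± 121 and 29.0 ± 0.915 with miR-137, a ratio of 9.57. By class, the ratio of total to PABP-bound RNA in control cells was 7.71 for SNORD, 10.9 for SNORA and 24.8 for SCARNA genes in U251, and 2.14, 4.12 and 12.5 in U343. The order SNORD, SNORA, SCARNA was shared by the control cells of both lines and by U343 cells with miR-137 (2.65, 5.96 and 22.0). In U251 cells with miR-137 SNORD stood above SNORA (14.6, 9.70 and 20.4). With SNORD17 left out the SNORD ratio was 5.00 in U251 control cells and 4.26 with miR-137. Leaving out the first U251 control PABP library moved the ratios of control cells to 12.1, 12.99 and 40.3, and leaving out the second to 5.66, 9.40 and 17.9. In U343 cells with miR-137 the SCARNA ratio was 13.9 without the first total RNA library and 30.1 without the second. These were chosen after the data were seen. Taken per member instead, the median log2 ratios of PABP-bound to total RNA of tested members lay closer. They were −2.58 for SNORD, −2.92 for SNORA and −3.02 for SCARNA genes in U251, and −1.89, −2.52 and −3.34 in U343. These medians cover 36 of 227 SNORD, 58 of 97 SNORA and 15 of 23 SCARNA genes in U251. In U343 they cover 22 of 230, 45 of 97 and 13 of 24. Tested members passed a filter on low counts mostly through total RNA, to a different extent by class, which favours low ratios. A ratio within a library pair of this kind describes shares of reads, and an absolute amount of RNA per cell was not measured.

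A few members held most of these reads. In U251 total RNA the 3 members with the most reads were SCARNA10, SNORD17 and SCARNA2, in U343 SCARNA2, SCARNA10 and SCARNA7, and the top 3 of a library held 50.4% to 62.2% of its member reads in RNASeq and 23.6% to 44.3% in RIPSeq. SCARNA genes, although 23 or 24 in number, held 39.2% to 40.9% of member reads in U251 total RNA and 62.1% to 71.7% in U343 total RNA. Per kilobase of span, on the scale of counts per 1000000 reads normalised by the trimmed mean of M values (CPM), control total RNA of U251 was led by SNORD17 at 878, SCARNA10 at 687 and SNORA48 at 250. SNORA57 (177), SCARNA2 (168), SNORA52 (126), SNORA22 (95.5), SNORA84 (88.1), SCARNA7 (87.5) and SNORA71A (78.9) followed. The U343 order in CPM per kilobase was SCARNA2 (131), SCARNA10 (94.6), SNORD58B (43.7), SNORD49B (38.7), SCARNA7 (37.7), SCARNA12 (21.6), SNORA70 (19.9), SNORD86 (19.6), SNORA48 (17.5) and SCARNA5 (14.3). Of these leading members, SCARNA2, SCARNA10, SCARNA7 and SNORA48 were common to both lines.

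SNORD17, a box C/D RNA of 237 bases at chr20:17891353-17891589 on the minus strand within SNX5, a sorting nexin gene, had 3472 and 3287 reads in U251 control total RNA, and 125 and 144 in U343. In CPM these were 208 ± 13.5 (SD, n = 2) and 3.16, on scales set within each line. SCARNA10, which carries both C/D and H/ACA elements, lies at chr12:6489649-6489978 within NCAPD2, the gene of a condensin subunit, and had 3483 and 3891 reads in U251 (227 ± 11.8 CPM) and 1094 and 1536 in U343 (31.2 ± 11.4 CPM). The counts of SNORD17 in U251 exceeded those of its host, which had 1712 and 1927 reads in the same libraries. In each U251 total RNA library 4 or 5 of the 236 members inside another gene had more reads than a host, among them SNORD17, SCARNA10, SNORA22 and SNORA47. In U251 RIPSeq no member did, and in each U343 library 0 or 1 did.

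SCARNA2, a Cajal body RNA that overlaps no gene of the tables, spans 420 bases at chr1:109444338-109444757 on the plus strand. It had 1336 and 949 reads in U251 control total RNA (70.5 ± 18.7 CPM) and 2437 and 2299 in U343 (55.2 ± 5.11 CPM). No other gene of the tables shares its span. Over the 8 libraries of U251 the members whose log2 CPM followed that of SNORD17 most closely were SNORA57, SNORA47 and SNORA71A (Pearson r of 0.985, 0.981 and 0.981). In U343 those nearest to SCARNA2 were SCARNA17, SNORA5C and SNORA71C (0.998, 0.992 and 0.991). These 8 points share libraries and fall into total and PABP-bound RNA, so the values only describe how the levels lay.

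**Figure D2:**
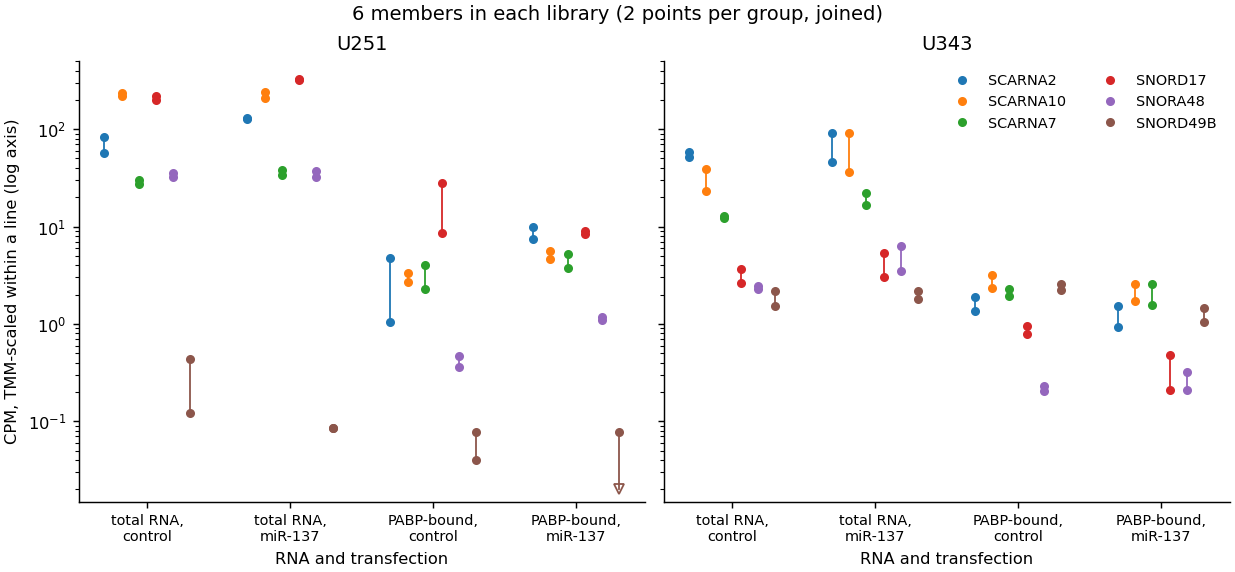
CPM on a log axis for 6 members in every library of U251 (left) and U343 (right), 2 points per group joined by a line; an open triangle at the foot of the axis marks a library with no read. SCARNA2, SCARNA10, SCARNA7, SNORD17 and SNORA48 lie lower in PABP-bound than in total RNA in both lines, whereas SNORD49B in U343 lies near 2 CPM in control libraries of both kinds.

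Many members had few reads or none, and the short ones were seen least. No read fell on 45 members in any U251 library and on 80 in any U343 library. In control total RNA 72.7% of SNORD, 93.8% of SNORA and 95.7% of SCARNA genes had a read in U251, and 51.7%, 95.9% and 95.8% in U343. Median levels in CPM per kilobase were 1.29, 5.64 and 4.51 in U251, and 0.123, 1.79 and 2.16 in U343. At least 10 reads in both control total RNA libraries were reached by 16 of 207 members under 100 bases in U251 (7.73%), by 59 of 126 members of at least 100 but under 200 bases (46.8%) and by 11 of 13 longer members, SNORD115-21 aside (84.6%). In U343 the numbers were 18 of 210 (8.57%), 50 of 126 (39.7%) and 12 of 14 (85.7%). The members of 200 bases or more thus held 63.2% and 63.4% of member reads in control total RNA of the lines, and the members under 100 bases, all of them SNORD genes, 6.09% and 11.0%. Among member reads of control PABP-bound RNA, members under 100 bases held 20.6% in U251 and 34.7% in U343. Libraries were read for 36 cycles from fragmented cDNA, and whether fragments of the shortest RNAs were kept in equal measure was not tested.

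**Figure D3:**
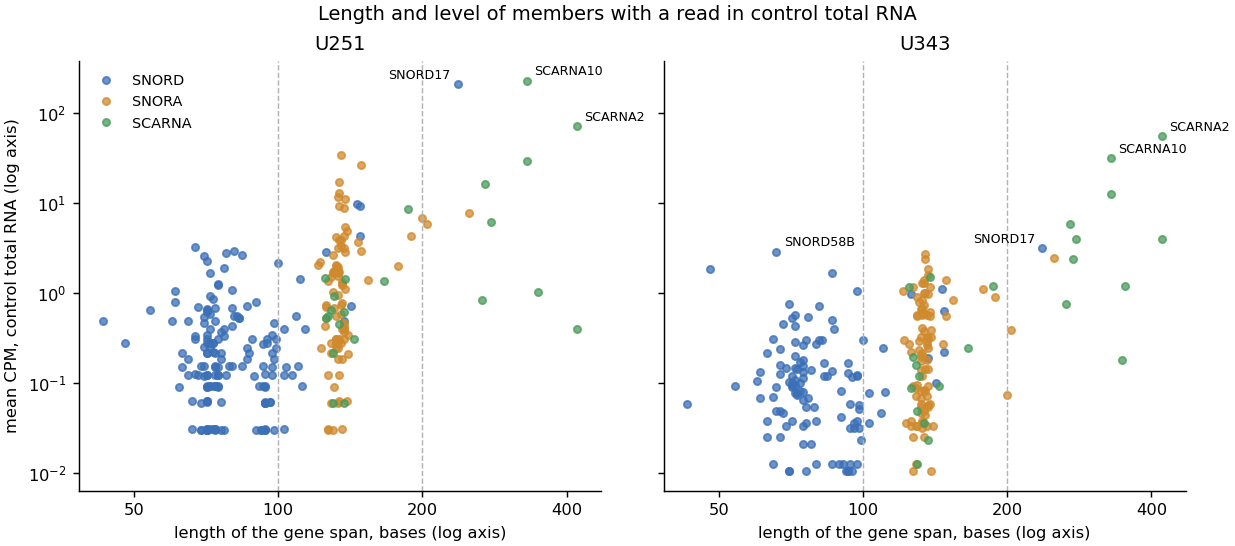
Mean CPM in control total RNA (vertical log axis) against the length of the gene span in bases (horizontal log axis) for each member with a read, coloured by class, with dashed lines at 100 and 200 bases. Members under 100 bases are SNORD genes at low levels, while SCARNA10 and SCARNA2 of 330 and 420 bases lie at or near the top in both lines.

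Members of the repeated SNORD clusters had few reads, with 1 difference between the lines. The 38 copies of SNORD113 and SNORD114 in the U251 tables had 394 reads over 8 libraries, on 37 copies, with 62, 72, 106 and 90 reads in the total RNA libraries. The 40 copies in U343 had 3 reads in all. The 30 SNORD115 copies had 4 reads in U251 and 6 in U343, and the 22 SNORD116 copies 70 and 72. Copies of a cluster resemble each other, and how reads that fit several copies were counted is not given in the sources used here. In the other direction, 4 members with no read in U251 had at least 10 reads per library on average in U343. They were SNORD58B (1153 reads over 8 libraries, 3.47 RPM), SCARNA13 (504 reads, 1.51 RPM), SNORD86 (486 reads, 1.46 RPM) and SNORA43 (1.03 RPM), and a count of 0 over the 8 U251 libraries allows up to 0.0187 RPM. Among 58 members with at least 10 reads in both control total RNA libraries of both lines, 57 were lower in U343, with a median log2 ratio of U343 to U251 of −2.07. The lowest were SNORD17 (−6.04), SNORA22 (−5.07) and SNORA52 (−4.82), and the highest SCARNA21 (0.07), SCARNA6 (−0.15) and SCARNA2 (−0.35). In the deeper U343 libraries 10 reads stand for a lower level, so this choice of members favours those lower in U343. A further 28 members shared by the tables reached that count in U251 only, and 21 in U343 only. CPM was scaled within each line, and the share over all genes was not taken. The U251 and U343 libraries were made with different cDNA kits and counted on tables of 20314 and 20626 genes. The line, the kit and the counting therefore cannot be told apart. Whether reads were assigned to members in the same way in both lines was not tested. The limit of 0.0187 RPM takes it that they were, and covers counting error only.

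The comparison of RIPSeq with RNASeq asks whether a member's share of reads differs between them, and gives no fraction of RNA bound to PABP. It was tested by edgeR's quasi-likelihood test over the 8 libraries of a line, with transfection as a term and adjusted p under 0.05 (Benjamini-Hochberg over all tested genes) as the threshold. In U251, 109 members had enough reads to be tested, and 95 were lower in PABP-bound than in total RNA, where 20.8% of all tested genes were lower. None was higher by edgeR, where 21.4% of all genes were, and at an unadjusted p under 0.05 the numbers were 98 lower and 0 higher (DESeq2 96 and 0). In U343, 72 of 80 tested members were lower (22.6% of all genes) and 0 higher (22.1%), with 72 and 1 at an unadjusted p under 0.05 and 70 and 0 by DESeq2. The median log2 ratio of PABP-bound to total RNA was −2.88 for members and 0.04 for all genes in U251, and −2.53 and −0.02 in U343. By library totals without TMM factors these medians were −3.04 and −0.10 in U251, and −2.63 and −0.12 in U343, and the genes called lower and higher changed from 2869 and 2947 to 3587 and 2231 in U251 and from 3420 and 3340 to 4339 and 2381 in U343.

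Members that passed the filter on low counts did so mostly through total RNA, so the same comparison was made over every member with a read. The mean level was lower in PABP-bound RNA for 278 of 302 members in U251 (92.1%, against 41.7% of all genes with a read) and for 249 of 271 in U343 (91.9%, against 48.4%). All 4 PABP libraries lay below all 4 total RNA libraries for 138 members in U251 (13.3% of genes) and 114 in U343 (12.1%). They lay above in 1 and 0 members (14.1% and 9.55% of genes).

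By class, 26 of 36 tested SNORD, 56 of 58 SNORA and 13 of 15 SCARNA genes were lower in PABP-bound RNA of U251, and 17 of 22, 42 of 45 and 13 of 13 in U343. Beside them stands a list of 11 other short or structured RNAs without a poly(A) tail (minor spliceosomal, RNase P, RNase MRP, telomerase and vault RNAs, and RNU86). In U251 10 of the 10 tested were lower in PABP-bound RNA (20.8% of all genes), with a median log2 ratio of −4.89. In U343 8 of 8 were (22.6% of all genes), with a median of −3.42. Several of them passed the filter on low counts through total RNA, so the filter favours this outcome. In U251, VTRNA1-1 had 26, 59, 23 and 15 reads in total RNA and 0, 1, 0 and 2 in PABP-bound RNA. RMRP had at least 12855 reads in every U251 library and a log2 ratio of −3.43. RNU86, listed by its name alone, had too few reads to be tested in either line. In U251 it had 0.19, 0.18, 0.43 and 0.26 CPM in total RNA, and 0.48, 0.39, 0.32 and 0.31 in PABP-bound RNA. In U343 it had 0.085, 0.13, 0.14 and 0.14 CPM, and 0.046, 0.051, 0.19 and 0.052.

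Among H/ACA RNAs of U251, SNORA22, at chr7:64857948-64858081 in the pseudogene CCT6P1, had 174, 243, 190 and 152 reads in the total RNA libraries (control 1 and 2, then miR-137 1 and 2) and 2, 6, 1 and 4 in the PABP libraries. Its CPM in PABP-bound RNA was 0.922% of its CPM in total RNA, a log2 ratio of −6.63 (SE 0.36, adjusted p = 1.85e-05 in edgeR). SNORA52, at chr11:801681-801814 in the ribosomal protein gene RPLP2, had 299, 249, 217 and 169 reads in total RNA and 3, 4, 5 and 10 in PABP-bound RNA, a log2 ratio of −6.21 (SE 0.30), whereas its host had 0.72. Both groups of libraries were far apart for these RNAs. SNORA49 in EP400, the gene of a chromatin remodeller, had 63, 40, 63 and 33 reads in total RNA and 1, 0, 0 and 3 in PABP-bound RNA. The box C/D RNA SNORD15B, at chr11:74793113-74793258 in the ribosomal protein gene RPS3, had 171, 147, 132 and 96 reads against 5, 0, 5 and 5 (log2 ratio −5.95). SNORA48, an H/ACA RNA at chr17:7418755-7418889 within EIF4A1, a translation initiation factor gene, had log2 ratios of −5.50 in U251 and −3.83 in U343.

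In U343 the RNAs lowest with PABP were 3 of the Cajal body class and SNORA80. SCARNA2 had 2437, 2299, 4014 and 2031 reads in total RNA and 59, 75, 58 and 36 in PABP-bound RNA, a log2 ratio of −5.42 (SE 0.31, adjusted p = 1.06e-05 in edgeR). SCARNA6, at chr2:233862061-233862326, had 38, 27, 99 and 37 reads against 1, 1, 2 and 0 (−5.31, SE 0.60), and SCARNA5, at chr2:233849111-233849388, 167, 172, 550 and 218 against 6, 5, 3 and 10 (−5.30). Both lie in ATG16L1, an autophagy gene. SNORA80, an H/ACA RNA in URB1, had 82 reads in the 4 total RNA libraries and 1 in the 4 PABP libraries, so that its level was 79.8 times higher in total RNA with an exact 95% counting interval of 13.9 to 3190. SCARNA10 had log2 ratios of −5.77 (SE 0.24) in U251 and −4.17 in U343, and SCARNA2 in U251 −4.16 (SE 0.45).

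Some members did not follow this pattern, and they are named here after their values were seen. In U343 SNORD58B, a box C/D RNA at chr18:45272032-45272097 in the ribosomal protein gene RPL17, had 141, 109, 149 and 148 reads in total RNA and 221, 140, 131 and 114 in PABP-bound RNA, a log2 ratio of 0.27 (adjusted p = 0.26 in edgeR). SNORD86, at chr20:2584743-2584828 in NOP56, itself the gene of a box C/D core protein, had 69, 75, 22 and 43 against 87, 82, 60 and 48 (0.59, adjusted p = 0.0752 in edgeR). SNORA40, which overlaps no gene, had 55, 46, 35 and 36 against 65, 43, 20 and 25 (−0.10, adjusted p = 0.695 in edgeR). For these RNAs the libraries of the assays overlapped. In U251 the only tested members above 0 were SNORD88B in C19orf48 (0.92, adjusted p = 0.136 in edgeR) and SNORD55 (0.66), and SCARNA22 in WHSC1, a histone methyltransferase gene, stood near 0 (−0.18, adjusted p = 0.6 in edgeR). Which part of the reads on such members comes from a host transcript was not tested.

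The hosts of these members were spread about 0. Of 97 pairs of a tested member and a tested host on the same strand in U251, the member had the lower ratio of PABP-bound to total RNA in 95, and in U343 in 72 of 75. Members entered these pairs only past the filter on low counts, which most passed through total RNA, so the filter favours this outcome. Pairs without the filter were not compared. The median log2 ratio was 0.13 for the hosts of these pairs in U251 and −0.09 in U343. Of 67 hosts in the U251 pairs 9 were lower and 17 higher in PABP-bound RNA, and of 56 in the U343 pairs 16 were lower and 13 higher. The list of GAS5 and the host RNA genes whose names start with SNHG, SNHG3-RCC1 among them, gave 2 lower and 1 higher of 12 in U251, and 7 lower and 1 higher of 13 in U343.

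**Figure D4:**
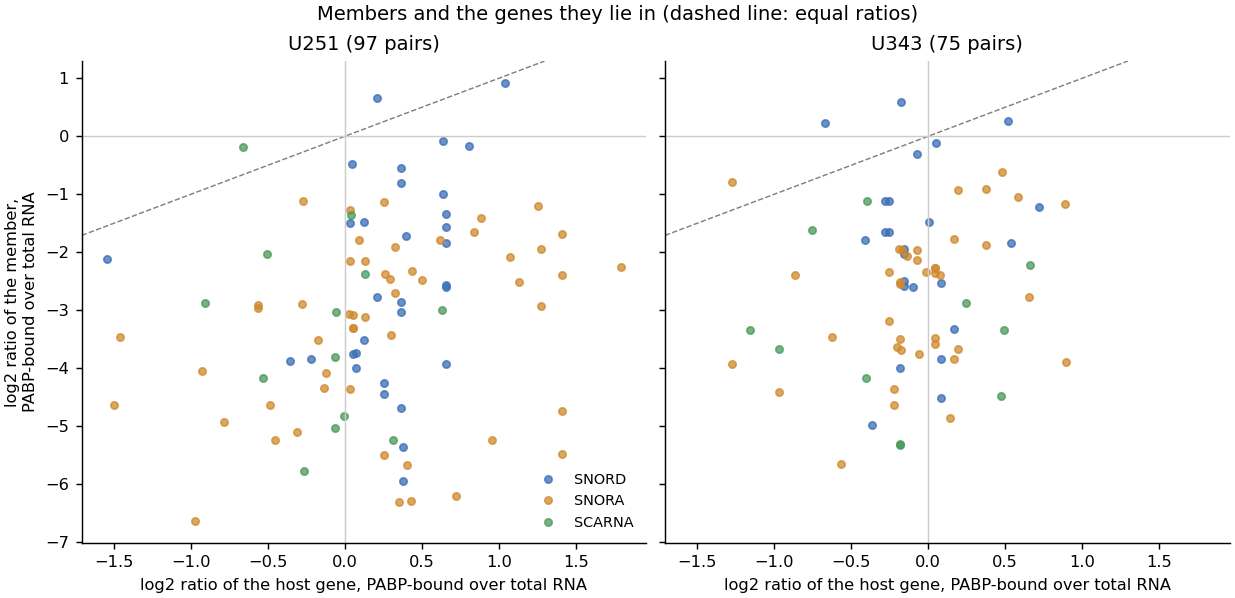
Log2 ratio of PABP-bound to total RNA for each tested member (vertical axis) against that of its same-strand host (horizontal axis), 97 pairs in U251 and 75 in U343, coloured by class, with a dashed line where both are equal. Nearly all points lie under the line, 95 of 97 and 72 of 75, and the hosts scatter about 0. Only members past the filter on low counts are shown, which favours points under the line.

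The comparison of miR-137 with control transfection in U251 total RNA asks which members change with the mimic. Of 100 tested members 7 were higher, where 28.7% of all tested genes were, and 2 were lower, where 29% were (edgeR, adjusted p under 0.05). The shares of members were below these backgrounds. Many tested members had few reads, which makes a call harder to reach. Genes with like counts were not compared, here or in the other comparisons with miR-137. At an unadjusted p under 0.05 the numbers were 11 and 3, and DESeq2 called 2 higher and 1 lower. The median log2 fold change was 0.12 for members and 0.02 for all genes. Library totals without TMM factors moved the median of all genes to 0.28 and that of members to 0.38, and turned the split of all genes from 3749 higher and 3780 lower to 5426 and 2464, and that of members from 7 and 2 to 16 and 2. By upper-quartile scaling the median of all genes was 0.16, and 11 members were higher and 2 lower. More members were called higher without the second miR-137 library than without the first, and the share of all genes in those fits is not given here. Over the 293 members with a read, both miR-137 libraries lay above both control libraries for 67 (36% of genes) and below for 36 (30.3%).

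Of 14 tested SCARNA genes 5 were higher with miR-137 in edgeR, beside the 28.7% of all genes. DESeq2 called 1 of them, and the fit of all 8 libraries of the line 0. SCARNA2 had 1336 and 949 control reads and 1493 and 1525 with miR-137, from libraries of smaller total. Its CPM rose from 70.5 ± 18.7 to 130 ± 2.64 (SD, n = 2), a log2 fold change of 0.91 (SE 0.16, adjusted p = 0.000327 in edgeR). SCARNA5 went from 95 and 105 reads to 128 and 92 (0.66, SE 0.21, adjusted p = 0.0152 in edgeR), and SCARNA6 from 14 and 13 to 21 and 17 (1.00, SE 0.37, adjusted p = 0.0312 in edgeR). Their common host ATG16L1 had a log2 fold change of 0.45 (adjusted p = 0.00656 in edgeR). SCARNA7, in KPNA4, an importin gene at chr3:161715389-161715718, had 485 and 453 reads, then 448 and 397 (0.37, SE 0.14, adjusted p = 0.04 in edgeR), against −0.38 for its host. SCARNA17, at chr18:45594391-45594811 and without a host, had 3 and 10 reads, then 14 and 11 (1.44, SE 0.53, adjusted p = 0.0314 in edgeR), and its log2 fold change was 2.48 without the second control library and 0.85 without the first, where it was no longer past the threshold, nor was it without the first miR-137 library (1.26). SCARNA10, the most abundant of the class in U251, had 3483 and 3891 reads, then 2830 and 2413, and a log2 fold change of 0.03 (adjusted p = 0.873 in edgeR). Among 12 other settings SCARNA2 passed in 11, SCARNA5 in 8, SCARNA7 in 7, SCARNA17 in 5 and SCARNA6 in 4.

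The remaining higher members were SNORD17 and SNORA47. SNORD17 had 3472 and 3287 control reads and 3844 and 3700 with miR-137, or 208 ± 13.5 and 324 ± 6.99 CPM, a log2 fold change of 0.68 (SE 0.13, adjusted p = 0.000649 in edgeR). SNX5 around it fell from 1712 and 1927 reads to 549 and 631 (−1.11, adjusted p = 1.06e-05 in edgeR). The member and its host thus moved in opposite directions in the same libraries. SNORA47, at chr5:76412015-76412152 in the zinc finger gene ZBED3, had 70 and 106 reads, then 113 and 75 (0.62, SE 0.25, adjusted p = 0.0457 in edgeR), and its host rose by more (1.54, adjusted p = 0.000206 in edgeR). SNORD17 passed in 11 of 12 other settings, failing in the fit of all 8 libraries of the line (adjusted p = 0.355 in edgeR), as did SCARNA2 (adjusted p = 0.275 in edgeR), and SNORA47 passed in 6.

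The lower members were SNORD25 and SNORA26. SNORD25, a box C/D RNA of 67 bases at chr11:62379613-62379679 on the minus strand in SNHG1, a spliced RNA whose introns hold several box C/D RNAs, had 54 and 52 control reads and 14 and 14 with miR-137. In CPM it fell from 3.26 ± 0.173 to 1.20 ± 0.00648, a log2 fold change of −1.40 (SE 0.30, adjusted p = 0.00136 in edgeR). SNHG1 itself had 749 and 856 reads, then 698 and 854, and was higher (0.47, adjusted p = 0.00998 in edgeR). The 8 members in SNHG1 (SNORD22 and SNORD25 to SNORD31) summed to 211 and 177 control reads and 94 and 82 with miR-137 in U251. These sums are not scaled for library totals, which were 16886287 and 18224061 in control and 10260834 and 10156675 with miR-137. The 5 of these members that were tested had scaled log2 fold changes of −1.40 to −0.24, of which that of SNORD25 passed. In U343 they summed to 126 and 124 reads, then 47 and 75, and the 5 tested had −1.60 to −0.55, none past the threshold. SNORA26, an H/ACA RNA at chr4:53274173-53274294 in KIAA0114, had 34 and 37 reads, then 7 and 12 (−1.37, SE 0.37, adjusted p = 0.00579 in edgeR), and its host fell from 2579 and 3314 to 163 and 180 (−3.58, adjusted p = 8.61e-10 in edgeR). SNORD25 passed in 11 of 12 other settings, and in the remaining one, at least 50 reads on average, it was not tested. SNORA26 passed in 8, and without the first miR-137 library it did not (adjusted p = 0.0774 in edgeR).

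Values for 3 further hosts with several members, picked after their values were seen, were as follows. The sums of reads are again not scaled for the smaller totals of the U251 miR-137 libraries. The 10 members in GAS5 had 204 and 167 reads in U251 control total RNA and 119 and 135 with miR-137, and the 5 tested had log2 fold changes of −0.37 to 0.67, none past the threshold, beside 0.04 for GAS5. The 4 members in EIF4A2 had 206 and 190 reads, then 153 and 117, with −0.39 to 0.22 beside 0.58 for the host. The 4 in RPL4, a ribosomal protein gene, had 47 and 60 reads, then 45 and 36, and the 2 tested had −0.11 and 0.86 beside −1.19 for RPL4. Over 88 pairs of a tested member and host the member had the lower log2 fold change in 30. Of the 61 hosts in these pairs 36 were lower and 11 higher.

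In U251 PABP-bound RNA no member passed in either direction with miR-137 (edgeR, 39 tested), where 0.263% of all genes were lower and 0.944% higher. At an unadjusted p under 0.05 there were 0 lower and 5 higher, and DESeq2 called 0. The median log2 fold change of the tested members was 0.50, against −0.02 for all genes. With either control library left out, members were called higher. The share of all genes called in those fits is not given here, so these calls are not read as a response of members. SNORD17 shows how far the control libraries lie apart, with 698 and 222 reads in control and 221 and 218 with miR-137 (−1.20, adjusted p = 0.394 in edgeR). SCARNA2 had 118 and 27 reads, then 244 and 191 (1.45, adjusted p = 0.38 in edgeR). Both miR-137 libraries lay above both control libraries for 89 of the 271 members with a read (24.6% of genes) and below for 16 (20.8%).

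In U343 total RNA no member passed in either direction with miR-137 (edgeR, 90 tested), where 11.7% of all genes were lower and 8.31% higher. At an unadjusted p under 0.05 there were 5 lower and 5 higher, and DESeq2 called 0 lower and 2 higher. The nearest was SNORA49 in EP400, with 12 and 15 reads, then 50 and 34 (1.61, SE 0.38, adjusted p = 0.0511 in edgeR). The first miR-137 library held more of the abundant members than the second. SCARNA10 had 1094 and 1536 control reads and 3978 and 1583 with miR-137 (1.04, SE 0.52, adjusted p = 0.229 in edgeR), and SCARNA2 2437 and 2299, then 4014 and 2031 (0.34, adjusted p = 0.531 in edgeR). For SCARNA2 the groups overlapped in reads. More members were called higher without the second miR-137 library than without the first. The share of all genes called in those fits is not given here. The summed level of the other structured RNAs moved alongside, with 2312 and 3175 RPM in control and 6229 and 3060 with miR-137. The part of that library difference in any member's value was not tested. Both miR-137 libraries lay above both control libraries for 45 of 256 members with a read (29.8% of genes) and below for 52 (27.3%).

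In U343 PABP-bound RNA 5 of 26 tested members were lower with miR-137, where 27.8% of all genes were, and 1 was higher, where 28.5% were (edgeR). At an unadjusted p under 0.05 there were 7 and 1, and DESeq2 called 2 and 1. The median log2 fold change of the tested members was −0.41. The lower members lay at different places in the genome. SNORD17 had 42 and 31 reads, then 18 and 8 (0.874 ± 0.12 and 0.342 ± 0.189 CPM), a log2 fold change of −1.34 (SE 0.38, adjusted p = 0.0177 in edgeR), beside −0.37 for SNX5, and the log2 fold change was −2.04 without the first miR-137 library and −0.88, no longer past the threshold, without the second. SCARNA22, at chr4:1946161-1946285, had 36 and 30 reads, then 11 and 15 (−1.20, SE 0.30, adjusted p = 0.0104 in edgeR), and WHSC1 around it had −1.27. SNORA40, at chr11:93107924-93108050 and without a host, had 65 and 43 reads, then 20 and 25 (−1.12, SE 0.28, adjusted p = 0.0101 in edgeR). SNORD49B, a box C/D RNA of 48 bases at chr17:16283548-16283595 in NCRNA00188, had 112 and 88 reads, then 55 and 40 (−0.94, SE 0.22, adjusted p = 0.00885 in edgeR), beside −0.41 for its host. SNORD88B, which the naming rule would not have named, had 18 and 19 reads, then 7 and 9 (−1.07, SE 0.36, adjusted p = 0.037 in edgeR).

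SNORD55, the 1 higher member and likewise named after its values were seen, is a box C/D RNA. It had 1 and 3 reads in control and 14 and 12 with miR-137 (2.75, SE 0.57, adjusted p = 0.00456 in edgeR), and its log2 fold change was 2.12 without the first control library and 3.73 without the second. In U251 PABP-bound RNA SNORD55 had 35 and 22 reads, then 24 and 13. Its response differed between the lines by 3.504 on the log2 scale (SE 0.94), which did not pass (adjusted p = 0.0904 in edgeR). Without the first control library 0 members were lower, without either miR-137 library 2 were, and the higher call was kept in each of these. Of 12 other settings SNORD55 passed in 11, SNORD49B in 10, SNORA40 in 9, SCARNA22 and SNORD17 in 7 and SNORD88B in 5. Both miR-137 libraries lay below both control libraries for 31 of 237 members with a read (33.1% of genes) and above for 32 (34.4%).

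**Figure D5:**
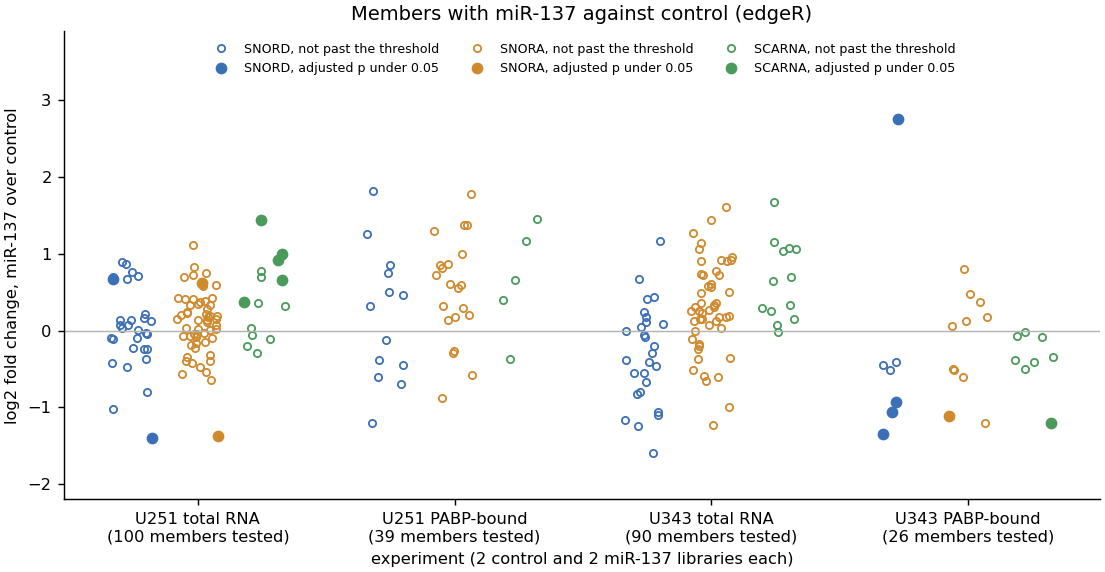
Log2 fold change of miR-137 over control (vertical axis) for each tested member in the 4 experiments, by class, with filled points for adjusted p under 0.05 in edgeR. Filled points are 9 of 100 in U251 total RNA, 0 of 39 in U251 PABP-bound RNA, 0 of 90 in U343 total RNA and 6 of 26 in U343 PABP-bound RNA.

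Whether the response to miR-137 differed between assays or lines was tested as an interaction in edgeR. No member passed in any of the 4 tests, among 117 tested between the assays in U251 (0.134% of genes passed), 88 between the assays in U343 (0.00649%), 156 between the lines in RNASeq (25.2%) and 58 between the lines in RIPSeq (3.28%). At an unadjusted p under 0.05 there were 9, 8, 9 and 2 members, and DESeq2 called 0, 0, 1 and 1. A call in 1 experiment and not in another is therefore not shown to be a difference between them. The comparisons of PABP-bound with total RNA and of miR-137 with control share libraries, and their values for a member are not independent.

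The study's own rule sets each control library against each miR-137 library by Fisher's exact test and asks that all 4 of these comparisons have adjusted p under 0.001 and odds of more than 2 to 1. The methods mention an additional U251 replicate, which was not analysed here, so in U251 the rule was applied to 2 libraries per group. It called no member in any experiment. Among all genes the rule called 2.21% lower and 6.14% higher in U251 RNASeq, 1.49% and 3.47% in U251 RIPSeq, 2.88% and 1.51% in U343 RNASeq, and 3.4% and 4.83% in U343 RIPSeq. At odds of more than 1.5 to 1 it called 2 members higher in U251 RNASeq. The counts of edgeR and DESeq2 on the same libraries are given above. In U343 RNASeq, without the second miR-137 library, the rule called some members higher. Those calls rest on the first miR-137 library alone, where members held 363 RPM against 192 in the second. The share of all genes called in that setting is not given here.

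The proteins that make and bind these RNAs were followed as lists. The 4 box C/D core proteins had log2 fold changes with miR-137 in U251 total RNA of 0.00 (FBL, the methyltransferase), −0.06 (NOP56), −0.29 (NOP58, adjusted p = 0.0697 in edgeR, the lowest of them) and −0.01 (NHP2L1). In U343 total RNA these were −0.33, −0.45 (adjusted p = 0.0773 in edgeR, the lowest), −0.52 and −0.03. Of the 4 box H/ACA core proteins in U251 total RNA, the pseudouridine synthase DKC1 (−0.40, adjusted p = 0.0229 in edgeR) and NHP2 (−0.80, adjusted p = 0.000408 in edgeR) fell and GAR1 rose (0.67, adjusted p = 0.00723 in edgeR). In U343 total RNA the 4 ranged from −0.30 (DKC1, adjusted p = 0.0696 in edgeR) to 0.18 (NHP2). Of 9 assembly factors 4 were lower in U251 total RNA (RUVBL2, PIH1D1, ZNHIT6 and SHQ1) and 1 in U343 total RNA (ZNHIT6), with 0 higher in either. Of 4 genes of Cajal body function in the tables, COIL, the scaffold of the body, was lower in U251 total RNA (−0.41) and WRAP53, which brings Cajal body RNAs to it, in U343 total RNA (−1.07). Of 6 factors that trim or degrade such RNAs, 1 was lower (XRN2) and 2 were higher (EXOSC10 and DBR1, the enzyme that opens intron lariats) in U251, and 1 was lower (EXOSC10) and 1 higher (PAPD5) in U343. Host RNAs of the SNHG and GAS5 group had 1 lower and 5 higher of 12 in U251 total RNA, and 3 lower and 0 higher of 13 in U343 total RNA. In U251 PABP-bound RNA the lowest adjusted p over the genes of these lists was 0.0978, for SNHG3-RCC1 (edgeR). In U343 PABP-bound RNA 1 of 4 C/D core (FBL), 1 of 4 H/ACA core (NOP10), 4 of 9 assembly and 3 of 4 Cajal body genes were lower and none of them higher. These shares stand beside backgrounds of 29% lower and 28.7% higher in U251 total RNA, 11.7% and 8.31% in U343 total RNA, and 27.8% and 28.5% in U343 PABP-bound RNA.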

How the data were processed

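Counts per gene of 16 RNASeq and RIPSeq libraries were used. The authors removed ribosomal RNA with Ribo-Zero, made cDNA with random hexamers (U251) or the TotalScript kit (U343), prepared Nextera libraries, read them for 36 cycles, used RMAP for alignment to hg18 and counted reads on 1 merged transcript model per RefSeq gene. The deposited values are raw counts. The treatment of multiply mapped reads is not given in the sources used here. The U251 tables give the same strand for every gene, so strands were taken from the U343 tables. SLC35E2 is on 2 lines of the U251 tables, and the first was kept. SNORD3A, SNORD118, SNORD13, SNORD14A, SNORA73A and SNORA73B were not analysed here, and values of 1 host gene are not reported here.

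From the counts, edgeR 4.0.16 (R 4.3.3, TMM, filterByExpr, glmQLFit and glmQLFTest) was fitted over all genes of a table, with Benjamini-Hochberg adjustment over all genes tested. The groups of a comparison alone entered each fit, except that all 8 libraries of a line entered the PABP and assay fits. Alternatives were DESeq2 1.42.0, other scalings, filters of 1 read and of 50 reads on average, a replicate block, members left out of the scaling, members that overlap no gene, and each library left out. CPM was TMM-scaled over the 8 libraries of a line. The scripts were tested on simulated counts with known changes. PCR reads are not independent molecules, so intervals and floors cover counting error only.

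Members named with values were the 10 with the most reads per kilobase in control total RNA of each line, the 4 most changed in each direction among called members with at least 20 reads on average and no exception among library pairs, and members of known role. Members and lists were chosen with earlier results of these data known.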

Additional observations from a re-analysis of the deposited data

How the results depend on the processing

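Counts of members lower and higher in PABP-bound RNA, and the direction of every named member under each alternative that could be fitted, did not reverse. Of the values of named members under other settings, 815 kept their side of the threshold and 66 fell short of it. For PABP-bound against total RNA these were 323 and 10 in U251 and 372 and 5 in U343. For miR-137 they were 71 and 33 in U251 RNASeq and 49 and 18 in U343 RIPSeq. No value for miR-137 in U251 RIPSeq or U343 RNASeq entered. Few members under 100 bases reached 10 reads, so few of them could be tested. With miR-137 in U251 RNASeq the 2 lower members became 1 by DESeq2, 1 in the fit of the whole line, 0 with at least 50 reads on average and 0 among members that overlap no gene. The 7 higher became 2 by DESeq2, 0 in the fit of the whole line, 16 by library totals, 11 by upper quartile, 2 without a filter beyond 1 read and 2 among members that overlap no gene. In U251 RIPSeq the 0 higher became 5 in the fit of the line, and in U343 RNASeq the fit of the line gave 3 lower and 3 higher and DESeq2 2 higher. In U343 RIPSeq the 5 lower became 2 by DESeq2, 1 with at least 50 reads and 1 among members that overlap no gene, and the 1 higher became 0, 2 and 0 with at least 50 reads, without a filter and among members that overlap no gene. For PABP-bound against total RNA the 95 lower in U251 became 20 with at least 50 reads and 10 among members that overlap no gene, where fewer members were tested. The 72 in U343 became 14, 7 and, without a filter, 115, and the control libraries alone gave 1 higher. For the difference between lines, DESeq2 gave 1 member in RNASeq and 1 in RIPSeq, and library totals 1 in RNASeq. The study's rule with an odds ratio over 1.5 gave 2 higher in U251 RNASeq. The cause of these changes was not tested except where fewer members entered.

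With a single library left out, the lower and higher counts ranged over 2 to 4 and 2 to 11 in U251 RNASeq, 0 to 5 and 0 to 18 in U251 RIPSeq, 0 to 2 and 0 to 19 in U343 RNASeq, and 0 to 5 and 1 to 1 in U343 RIPSeq. For PABP-bound against total RNA they were 87 to 102 and 0 to 0 in U251, and 71 to 77 and 0 to 0 in U343. By the study's rule they were 0 to 0 and 0 to 3, 0 to 2 and 0 to 2, 0 to 1 and 0 to 13, and 0 to 1 and 0 to 0, in the same order of experiments. A group then has 1 library, which is assumed to vary like the other group. The share of all genes called with a library left out is not given here. The labels name nothing that same-numbered control and miR-137 libraries share beyond the number. The correlations of their deviations were 0.04 and 0.01 in U251 and 0.14 and 0.24 in U343, over 2 pairs each. Whether such libraries were paired, above all in U343, cannot be told from these values. A replicate block gave 1 higher member in U251 RIPSeq, and 8 lower in U343 RIPSeq, and moved no other of these counts by over 1.5 times.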
